A study of Mus musculus with 12 samples.

Results

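Leukocytes of the prostate were compared between mice taken 28 days after a combined adoptive T cell transfer, Tumor+Allo/Y d28 (samples 10, 11 and 12), and mice taken 1 week after a Tumor transfer, Tumor (samples 4, 5 and 6). These 6 arrays are 6 of the 12 in the series and were chosen by their labels, as all arrays of both groups. Of 45281 probes, the 23054 that 3 or more of the 12 arrays detected (detection p below 0.05) were used. The remaining groups are the combined transfer at 1 week, Tumor+Allo/Y (samples 7, 8 and 9), and Allo/Y alone at 1 week (samples 1, 2 and 3). Every array holds total RNA of CD45+ cells from the prostate of 1 C57Bl/6 (TRAMP) mouse, and every group has 3 mice. Every mouse had a T cell transfer, and neither the meaning of Allo/Y nor the age of the mice is given in the labels. The transfer and the time after it differ together between the 2 groups, so what each adds to a difference cannot be told apart in this comparison.

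TRAMP mice carry a viral oncogene that is driven in prostate epithelium by the rat probasin promoter, and they develop prostate adenocarcinoma. CD45, encoded by Ptprc, is carried on the surface of leukocytes, so the cells selected are the immune cells of the prostate. In adoptive transfer, T cells given to the mouse enter the tissue, are activated through the T cell receptor and kill by releasing perforin and granzymes or through Fas ligand. Interferons made by infiltrating cells switch on antiviral and antigen presentation genes in their neighbours, while inhibitory receptors such as CTLA-4 and LAG-3 appear on T cells that meet antigen repeatedly.

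Called members of the T cell identity list were all higher at day 28 than in the Tumor group (6 of 15 measured). Called members of the NK cell (3 of 14), type I interferon (6 of 26) and proliferation (2 of 36) lists were all lower. Klr receptor genes were called both ways, with 2 of 23 higher (Klrh1 and Klrc1, both outside the NK cell list) and 4 lower. Over all 11971 genes, 1.7% were called higher and 0.936% lower. The T cell receptor chain Cd3e was 3.39-fold higher and the inhibitory receptor Ctla4 3.62-fold higher in Tumor+Allo/Y d28. The NK receptor Klra7 was 3.09-fold lower, and the interferon-induced factor Irf7 was 2.63-fold lower. Genes of B cells lay higher on all 14 measured members, of which 2 passed the test, and the gene lists of macrophages and neutrophils gave no call. The largest differences among called genes were a rise of the basal keratin Krt14, 10.2-fold, and a fall of the secretoglobin Scgb2b27, 11.9-fold (a log2 difference of -3.57, which ran between -4.56 and -2.88 when 1 array was left out), so that genes of non-leukocytes also differed in the CD45+ fraction.

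In limma's fit with 1 mean per group, adjusted by Benjamini-Hochberg over all kept probes and called at an adjusted p under 0.05, 689 of 23054 probes differed (2.99%). Of these, 486 had a higher level in Tumor+Allo/Y d28 (2.11%) and 203 a lower one (0.881%). Probes without a single gene symbol held 144 of the higher calls, out of 3819 tested (3.77%), and 28 of the lower (0.733%). A gene is given by its kept probe with the highest mean, and of 11971 genes 316 differed (2.64%), 204 of them higher (1.7%) and 112 lower (0.936%). Of the 7264 dimmer probes of these genes, 138 were higher (1.9%) and 63 lower (0.867%). The groups did not overlap on any of these 316 genes. They did not overlap on 1455 of all genes in the higher direction (12.2%) and on 1539 in the lower (12.9%), called or not. Over all 11971 genes, 5356 had a positive difference and 6615 a negative one. Among called genes, 110 of the higher and 34 of the lower exceeded a 2-fold difference, and 11 and 2 exceeded 4-fold. Differences below are log2 of Tumor+Allo/Y d28 minus Tumor ± SE, levels are log2 normalised intensities, and n is 3 arrays per group.

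The calls lie close to the threshold, with an adjusted p under 0.01 for 4 higher genes (P2ry10, C7, Klrh1 and Xlr4c) and 0 lower ones. Because the groups did not overlap on any of the 316 called genes, leaving out 1 of the 6 arrays could not change a sign. Of these genes, 5 stayed past the threshold in all 6 fits that left out an array (C7, Klrh1, P2ry10, Wnt10b and Xlr4c). Without Tumor+Allo/Y d28 sample 10, 5 genes were called higher and 0 lower. A fit on the 6 arrays alone called 5 higher (B4galnt4, Gzmk, P2ry10, Slc32a1 and C7) and 0 lower. The spread in the fit of 12 arrays is pooled over 4 groups whose median SDs were 0.194 in Tumor+Allo/Y d28, 0.254 in Tumor+Allo/Y, 0.29 in Tumor and 0.133 in Allo/Y.

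The 3 Tumor+Allo/Y d28 arrays correlated with each other at 0.98 to 0.985 over the kept probes. Tumor sample 6 stood apart from Tumor samples 4 and 5, with correlations of 0.905 and 0.93, against 0.988 between those. Probes detected ran from 45.2% to 45.7% in Tumor+Allo/Y d28 and from 41.9% to 46.1% in Tumor, with sample 6 the lowest. The mean level of 23 epithelial identity genes was 9.03, 9.45 and 8.88 in Tumor+Allo/Y d28, against 9.47, 9.31 and 6.82 in Tumor. Sample 6 was thus the low array for epithelial genes, and without it 99 genes were called higher and 104 lower, 115 of these 203 also called with it. The leukocyte marker Ptprc was detected on all 6 arrays, at 8.26, 7.78 and 8.42 in Tumor+Allo/Y d28 and at 6.65, 7.65 and 7.97 in Tumor, a difference of 0.73 ± 0.33 that was not called. A list of 18 genes used by all leukocytes had a median difference of 0.03 with 0 called. In bulk RNA, fewer cells of a type and less RNA per cell cannot be told apart.

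**Figure D1:**
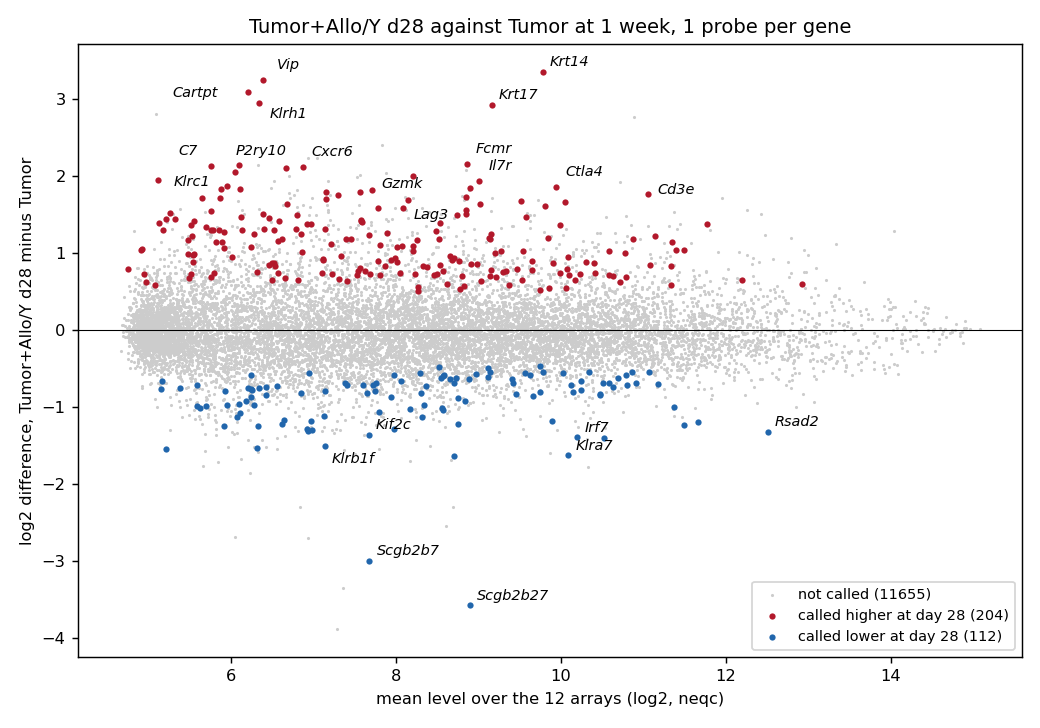
Each point is 1 of 11971 genes, with its mean log2 level over the 12 arrays on the x axis and the log2 difference of Tumor+Allo/Y d28 minus Tumor on the y axis. The 204 genes called higher (red) reach 3.35 for Krt14, and the 112 called lower (blue) reach -3.57 for Scgb2b27.

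Of 15 measured genes of the T cell receptor and T cell identity, 6 rose and 0 fell, with a list median of 1.25, against -0.05 over all genes. The groups did not overlap on 14 of the 15, all higher at day 28, against 12.2% of all genes in that direction. Cd3e, a signalling chain of the receptor, had levels of 13.29, 13.20 and 12.52 in Tumor+Allo/Y d28, against 11.72, 11.50 and 10.50 in Tumor. The lowest day 28 array lay above the highest Tumor array, and Cd3e rose by 1.76 ± 0.40 (limma adjusted p = 0.0459). Its partner Cd3g had 14.07, 13.85 and 13.28 in Tumor+Allo/Y d28 and 12.55, 12.36 and 11.15 in Tumor, and its difference of 1.71 ± 0.43 did not pass (adjusted p = 0.0602).

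The other called members belong to the signalling apparatus around the receptor. The costimulatory receptor Cd28 rose by 1.73 ± 0.41, the adaptor Lat by 1.49 ± 0.30, the adhesion receptor Cd2 by 1.36 ± 0.31 and Cd247, the zeta chain, by 1.10 ± 0.24. Themis, a T cell protein of receptor signalling, rose by 1.36 ± 0.21 (adjusted p = 0.0176), and a second of its 3 probes was called as well, at 1.79. The other probe of Lat gave 0.21 and was not called. Without Tumor sample 6 the list median was 0.93 and 1 gene was called. Over all 6 fits that left out an array the count ran between 0 and 4.

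Cd8b1, the beta chain of the CD8 coreceptor of killer T cells, had levels of 14.21, 14.09 and 13.55 in Tumor+Allo/Y d28 and of 12.69, 12.91 and 12.14 in Tumor. It rose by 1.37 ± 0.31 (adjusted p = 0.0467) on the probe used and by 2.06 on another, while the last of its 3 probes gave -0.23. Cd8b1 was the 1 gene called of 3 CD8 T cell genes measured (median 0.30). Crtam gave 0.30 ± 0.25 and Eomes 0.20 ± 0.29, and on both the groups overlapped. Of the 3 CD4 T cell genes measured, 0 were called. Cd4 itself gave 0.62 ± 0.23 without overlap between the groups, while Zbtb7b gave -0.46 and Maf -0.25. P2ry10, which encodes a lysophospholipid receptor of lymphocytes, had the smallest adjusted p of all genes. Its levels were 8.52, 8.44 and 8.38 in Tumor+Allo/Y d28 and 6.28, 6.58 and 6.18 in Tumor, a rise of 2.10 ± 0.16 (adjusted p = 0.000975). The 3 arrays of each group were close together, and its other probe also rose, by 1.78.

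Of 10 measured genes of inhibitory receptors and exhaustion, 4 rose and 0 fell, with a median of 1.07. Ctla4, which competes with CD28 for its ligands, had levels of 12.77, 12.15 and 12.16 in Tumor+Allo/Y d28, against 10.58, 10.97 and 9.96 in Tumor. All day 28 arrays were above all Tumor arrays, and the rise was 1.85 ± 0.33 (adjusted p = 0.0234). Lag3, a receptor for MHC class II, rose by 1.58 ± 0.25, Tigit by 1.58 ± 0.36 and the orphan nuclear receptor Nr4a2 by 1.03 ± 0.23. Pdcd1, which encodes PD-1 and was detected on 2 of 3 Tumor arrays, gave 1.11 ± 0.30 (adjusted p = 0.0714), and Tox, a factor of exhausted T cells, gave 1.18 ± 0.37 (adjusted p = 0.106). Without Tumor sample 6, 2 of the 10 genes were called, with a median of 0.86, and without Tumor sample 4 or Tumor+Allo/Y d28 samples 10 or 11, 0 were. The count was 1 without Tumor sample 5.

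Of 16 cytotoxic effector genes, 4 rose and 0 fell (median 0.84). Gzmk, a granzyme of effector and memory T cells, had levels of 9.62, 9.72 and 9.46 in Tumor+Allo/Y d28 and of 7.81, 7.87 and 7.68 in Tumor. The difference of 1.81 ± 0.26 was many times the spread within either group. Fasl, the death ligand, rose by 1.67 ± 0.39, and Cst7, an inhibitor of lysosomal proteases in killer cells, rose by 1.09 ± 0.21. The fourth is the inhibitory NK and T cell receptor Klrc1, described with its family below. The pore-forming protein gene Prf1 gave 0.55 ± 0.27 and -0.11 on its 2 probes, neither called. The cytokine Ifng had 12.56, 12.22 and 10.99 in Tumor+Allo/Y d28 and 10.52, 11.07 and 10.94 in Tumor, so the groups overlapped, and its 1.08 ± 0.33 did not pass (adjusted p = 0.0973). Without Tumor sample 6 the list median was 0.60 with 2 genes called, the same count as without Tumor samples 4 or 5. Without Tumor+Allo/Y d28 sample 10, 0 were called, and without sample 11, 1.

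Genes of memory and tissue residence included 2 that rose among 10 measured (median 0.71). Cxcr6, the receptor for CXCL16 on T cells held in tissues, had levels of 9.07, 8.88 and 8.54 in Tumor+Allo/Y d28, against 7.09, 6.82 and 6.23 in Tumor. It rose by 2.12 ± 0.39 (adjusted p = 0.0261), with a wide gap between the groups. Il7r, the interleukin 7 receptor chain that marks naive and memory T cells, rose by 1.93 ± 0.36 (adjusted p = 0.0284). Itgae, which encodes the integrin CD103, gave 1.92 ± 0.52 on the brightest of its 6 probes, not called (adjusted p = 0.0708), while another of them gave 2.21 and was called. The memory list had 1 gene called without Tumor sample 6, with a median of 0.45, and 0 without Tumor samples 4 or 5 or Tumor+Allo/Y d28 samples 10 or 11. Of 9 costimulatory receptors Cd28 and Icos rose, Icos by 1.47 ± 0.32, and 0 were called when any array other than sample 12 was left out. Of 9 regulatory T cell genes 1 rose, Ctla4, and Foxp3, the lineage factor, gave -0.21 ± 0.22 and 0.22 to 0.56 on its other probes, none called.

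**Figure D2:**
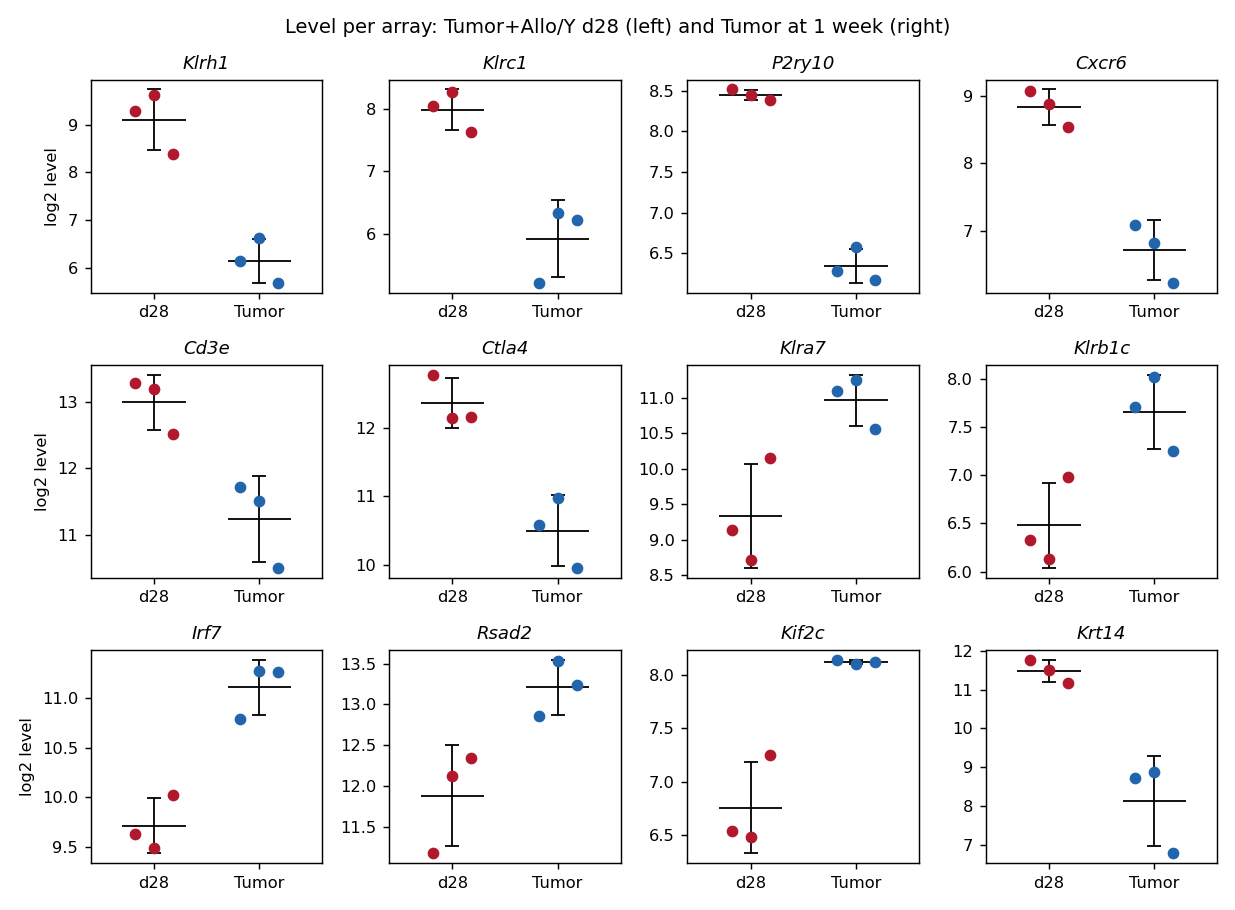
Log2 levels of 12 genes on each array, with Tumor+Allo/Y d28 in red on the left and Tumor in blue on the right of each panel. Bars are the mean and SD of 3 arrays. In all 12 panels the groups do not overlap, and P2ry10 has the tightest day 28 group, between 8.38 and 8.52.

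Of 14 NK cell genes measured, 0 rose and 3 fell, with a median of -0.91. Klra7, a Ly49 receptor of NK cells that binds MHC class I, had levels of 9.13, 8.72 and 10.15 in Tumor+Allo/Y d28 and of 11.09, 11.24 and 10.55 in Tumor. Sample 12 was the highest of its group and sample 6 the lowest of the other, without overlap, and Klra7 fell by 1.63 ± 0.34 (adjusted p = 0.0359). All 3 of its probes were called lower. Klrb1c, which encodes the NK1.1 antigen, fell by 1.18 ± 0.26 (adjusted p = 0.042), and its neighbour in the family, Klrb1a, fell by 0.98 ± 0.23 and was detected on 1 of 3 day 28 arrays. Without Tumor sample 6, 5 of the 14 genes were called lower (median -1.15), and without Tumor+Allo/Y d28 sample 12, 7 were. Without Tumor samples 4 or 5, or Tumor+Allo/Y d28 samples 10 or 11, 0 were called.

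Killer cell lectin-like receptors were called in both directions. Of 23 Klr genes measured, 2 rose, 4 fell and 17 were not called, and 19 had a negative difference. Among all 11971 genes, 1.7% were called higher and 0.936% lower, and 6615 had a negative difference. Klrh1, of which both probes were called, had levels of 9.29, 9.62 and 8.39 in Tumor+Allo/Y d28 and of 6.15, 6.63 and 5.70 in Tumor. It rose by 2.94 ± 0.31 (7.68-fold, adjusted p = 0.0047), the fourth largest rise among called genes. Klrc1, which encodes NKG2A, had 8.04, 8.27 and 7.63 in Tumor+Allo/Y d28 and 5.22, 6.34 and 6.22 in Tumor, a rise of 2.05 ± 0.28 (adjusted p = 0.0137). Its signalling partner Klrd1, or CD94, gave 0.76 ± 0.28 and was not called. On the other side Klrb1f fell by 1.51 ± 0.27, and 9 of 10 Klra genes had a negative difference, with Klra17 the exception at 1.36 ± 0.34, not called. Members of this family are close in sequence, so a probe may also bind RNA of a relative, which was not tested.

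**Figure D3:**
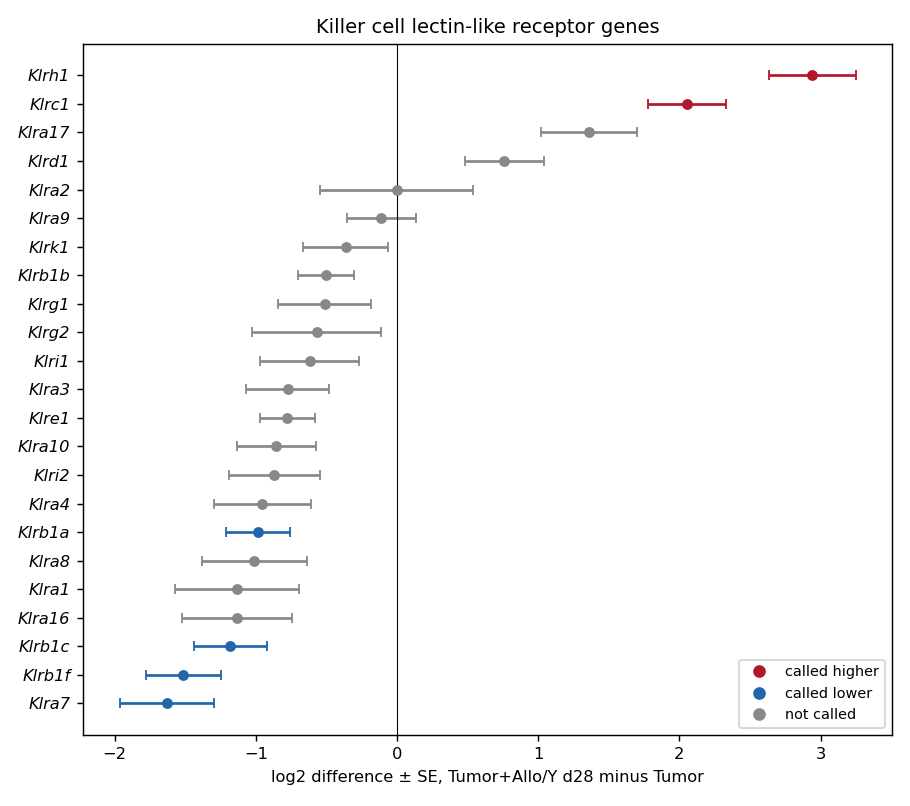
Log2 difference ± SE of Tumor+Allo/Y d28 minus Tumor for the 23 measured Klr genes, sorted by size, with called genes in colour. Klrh1 and Klrc1 lie at 2.94 and 2.05, and Klra7, Klrb1f, Klrb1c and Klrb1a lie between -1.63 and -0.98.

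Of 26 measured genes of the type I interferon response, 6 fell and 0 rose, 25 had a negative difference, and the median was -0.77. Irf7, the factor that amplifies interferon production, had levels of 9.63, 9.49 and 10.02 in Tumor+Allo/Y d28, against 10.79, 11.28 and 11.26 in Tumor. The groups were well apart, and it fell by 1.40 ± 0.27 (adjusted p = 0.0289). Rsad2, or viperin, had 11.18, 12.13 and 12.35 in Tumor+Allo/Y d28 and 12.86, 13.53 and 13.23 in Tumor. It fell by 1.32 ± 0.27 (adjusted p = 0.0359), with sample 10 the lowest array. The RNA-binding antiviral gene Ifit2 fell by 1.40 ± 0.32, the deISGylase Usp18 by 1.20 ± 0.21, the nucleotide kinase Cmpk2 by 1.18 ± 0.22 and the ubiquitin-like Isg15 by 1.00 ± 0.22. Oasl2 gave -0.68 ± 0.21 on its brightest probe, not called, while its 2 other probes were called lower. Without Tumor sample 6 the count was 3, and it ran between 0 and 8 over the fits that left out 1 array, with medians between -0.90 and -0.62.

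Genes of the interferon gamma response had a similar median, -0.86, but 0 of 21 were called. Cxcl9, the chemokine induced by interferon gamma, gave -0.44 ± 0.38, and the guanylate-binding protein gene Gbp2b gave -1.26 ± 0.64 with levels of 10.28, 9.98 and 12.15 in Tumor+Allo/Y d28 and of 11.00, 11.81 and 13.38 in Tumor. Both groups spread widely and overlapped. The mean level of this list was 10.19, 10.06 and 10.97 in Tumor+Allo/Y d28 and 10.44, 11.22 and 11.86 in Tumor, and without Tumor sample 6 the median was -0.43. Of 23 MHC class I and immunoproteasome genes 0 were called. Il15, a cytokine that sustains NK and memory CD8 T cells, fell by 0.84 ± 0.19 (adjusted p = 0.047), the one fall among 34 interleukin and receptor genes.

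The promoters of the interferon-response genes are shown because these genes are classically switched on by a complex of STAT and IRF proteins at a repeated motif. Its core, TTTC repeated after any 2 bases, or GAAA repeated after any 2 bases on the other strand, was searched in the 250 bases before each start site of the RefSeq promoters (GRCm38.p6). It was present in 978 of all 32851 promoters (2.98%), in 331 of 9654 measured genes (3.43%), in 8 of 19 type I list genes with a promoter (42.1%) and in 12 of 16 interferon gamma list genes (75%). Of 5 called type I genes with a promoter, 2 held it, and Cmpk2, Irf7 and Ifit2 did not. The 150 bases before the start are printed 5′ to 3′ on the gene's strand, with the motif in capitals. In Isg15 (chr4:156200819-156200968, minus strand) 3 overlapping matches begin 78, 72 and 66 bases before the start. In Rsad2 (chr12:26456453-26456602, minus strand) 1 match begins 120 bases before it, and in Irf7 (chr7:141266425-141266574, minus strand) these letters do not occur.
Isg15: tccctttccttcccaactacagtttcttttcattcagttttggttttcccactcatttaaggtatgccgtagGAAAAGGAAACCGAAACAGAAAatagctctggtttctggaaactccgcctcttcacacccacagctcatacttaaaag
Rsad2: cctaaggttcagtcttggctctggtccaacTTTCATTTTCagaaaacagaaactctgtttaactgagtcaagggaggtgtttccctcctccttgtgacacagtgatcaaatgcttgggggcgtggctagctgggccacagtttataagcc
Irf7: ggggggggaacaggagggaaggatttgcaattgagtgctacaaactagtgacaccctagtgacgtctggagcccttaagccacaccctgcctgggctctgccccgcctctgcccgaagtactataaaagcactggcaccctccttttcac
A match of letters is a description of the sequence and not a bound site. Both the genes with a match shown here and Irf7 were called lower.

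Of 36 genes of the proliferation list, 2 fell, 0 rose and 34 were not called, with a median of -0.66. Kif2c, a kinesin that corrects chromosome attachment, had levels of 6.54, 6.48 and 7.25 in Tumor+Allo/Y d28 and of 8.14, 8.10 and 8.12 in Tumor. It fell by 1.36 ± 0.25 (adjusted p = 0.0259), with the Tumor arrays almost equal and sample 12 nearest to them. Plk1, the mitotic kinase, fell by 1.13 ± 0.23 (adjusted p = 0.0357). The centromere genes Cenpm, which fell by 1.31 ± 0.23 on its brightest probe and was called on all 3, and Kntc1, which fell by 1.29 ± 0.27, are outside the list. So are the securin gene Pttg1 and the replication gene Donson, which rose by 0.64 ± 0.14 and 0.74 ± 0.15 (adjusted p = 0.0436 and 0.031). Further replication and mitosis genes outside the list were called lower, among them Haspin (-1.12), Kif4 (-1.07), Mcm10 (-1.05) and Gins1 (-1.03). The list mean was 7.91, 8.02 and 8.79 in Tumor+Allo/Y d28 and 8.82, 8.95 and 8.81 in Tumor. Sample 12 therefore sat at the level of the Tumor arrays, and without it 19 of the 36 genes were called lower with a median of -0.97. Without Tumor sample 6, 1 was called, and without Tumor samples 4 or 5 or Tumor+Allo/Y d28 samples 10 or 11, 0 were.

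B cell genes were higher on all 14 measured members, with a median of 1.33 and no overlap between groups on 11, but 2 were called. Over all genes, 12.2% did not overlap in the higher direction and 1.7% were called higher. Fcmr, the receptor for IgM, had levels of 10.99, 9.83 and 11.36 in Tumor+Allo/Y d28 and of 8.12, 8.80 and 8.78 in Tumor. It rose by 2.16 ± 0.51 (adjusted p = 0.0494), and the day 28 arrays varied by more than 1 log2 unit. Cd22, an inhibitory coreceptor of B cells, rose by 1.45 ± 0.31 (adjusted p = 0.0415). The follicular homing receptor Cxcr5 gave 1.72 ± 0.45 and the B cell coactivator Pou2af1 2.04 ± 0.65, neither called. The list mean was 7.95, 7.09 and 8.33 in Tumor+Allo/Y d28 and 6.47, 6.59 and 6.56 in Tumor, so sample 11 was the lowest of its group. The list count was 1 without Tumor sample 6 and 0 without Tumor samples 4 or 5 or Tumor+Allo/Y d28 samples 10 or 12. H2-Ob, a modulator of MHC class II loading in B cells, rose by 1.16 ± 0.26. It was the 1 gene called of 13 MHC class II presentation genes, of which 7 had a positive and 6 a negative difference (median 0.02). Ighg1, an immunoglobulin heavy chain constant gene, was not detected in Tumor and was at least 2.24-fold higher in Tumor+Allo/Y d28 (adjusted p = 0.0431), measured against the lowest level detected. Of 7 plasma cell and immunoglobulin genes it was the 1 called, with 5 positive and 2 negative differences (median 0.35).

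**Figure D4:**
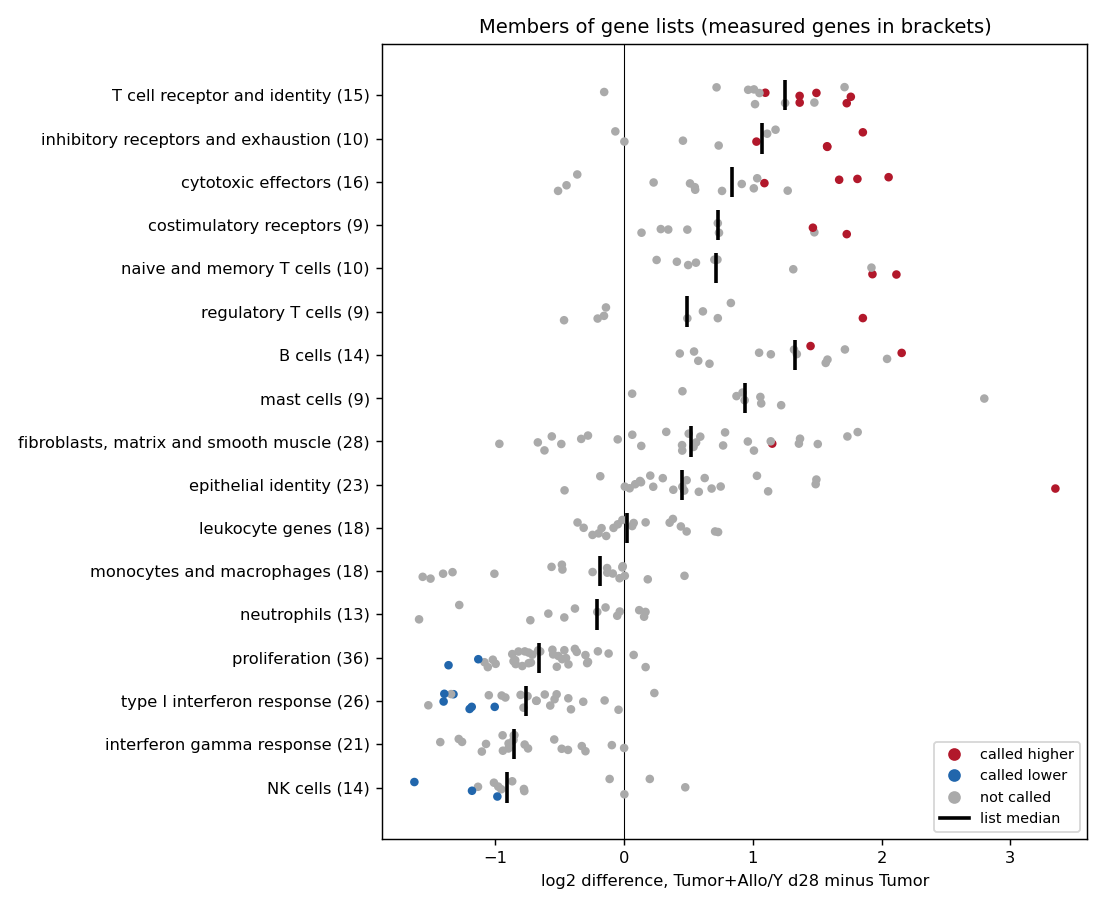
Each point is a measured gene of a list, placed by its log2 difference of Tumor+Allo/Y d28 minus Tumor, with the list's median as a black bar. T cell and B cell lists have medians of 1.25 and 1.33, and the proliferation, interferon and NK lists have medians between -0.91 and -0.66.

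The myeloid lists gave no call in the fit of all 12 arrays. Of 18 genes of monocytes and macrophages, 15 of classically activated and 22 of alternatively activated macrophages, 0 passed in either direction, with medians of -0.19, -0.29 and -0.20. Arg1, the arginase of suppressive macrophages, had 6.04, 6.66 and 9.81 in Tumor+Allo/Y d28 and 8.12, 8.65 and 12.66 in Tumor. Samples 12 and 6 were far above the other arrays of their groups, and the difference of -2.31 ± 1.25 did not pass (adjusted p = 0.327). Arg2, which is outside these lists, was called lower, at -0.92 (limma adjusted p = 0.0289). Nos2, detected on 1 of 3 day 28 and 2 of 3 Tumor arrays, gave -1.10 ± 0.78, Chil3, a chitinase-like protein, -0.97 ± 0.67, Tnf 0.15 ± 0.17, Il10 0.75 ± 0.43 and Adgre1, which encodes F4/80, 0.18 ± 0.24, none called. The 13 neutrophil genes had a median of -0.21, or 0.21 without Tumor sample 6, again with 0 called. Without Tumor+Allo/Y d28 sample 12, 1 gene was called lower in each of the monocyte and macrophage, alternatively activated and neutrophil lists. Without Tumor sample 6, 1 classically activated gene was called higher. Mast cell genes were higher on all 9 measured members (median 0.94) with 0 called, among them the protease Mcpt1, not detected in Tumor and at 7.01, 5.29 and 9.24 in Tumor+Allo/Y d28. Tnfrsf1b, the second TNF receptor, rose by 1.17 ± 0.22, the chemokine Cxcl14 by 1.40 ± 0.28, the complement inhibitor Serping1 by 1.00 ± 0.21 and the glucose transporter Slc2a3 by 0.79 ± 0.18. Each was the 1 call in its list, of 21 TNF and NF-kB genes (median -0.01) and 29 chemokines (0.32). The other 2 lists held 12 complement genes (median 0.10, C7 not among them) and 20 glycolysis and hypoxia genes (-0.42). Over all genes, 1.7% were called higher.

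Among called genes, some not specific to leukocytes had the largest differences. Krt14, the keratin of basal epithelium, had levels of 11.75, 11.52 and 11.17 in Tumor+Allo/Y d28 and of 8.72, 8.88 and 6.78 in Tumor. It rose by 3.35 ± 0.67 (adjusted p = 0.0317), and without Tumor sample 6 it gave 2.68 (adjusted p = 0.0514). Its basal relative Krt17 rose by 2.92 ± 0.52 (adjusted p = 0.0238). These levels were not particular to day 28. In Allo/Y at 1 week the mean level was 11.45 for Krt14 and 10.23 for Krt17, against 11.48 and 10.69 at day 28. The keratins Krt5 (1.03, adjusted p = 0.343) and Krt15 (1.49, adjusted p = 0.339) were not called. The other 22 epithelial identity genes were not called, and the list's median of 0.45 was -0.62 without Tumor sample 6. Of 28 secretory genes of prostate and seminal vesicle 0 were called, with the transglutaminase Tgm4 at 1.37 ± 0.81 and Svs2 at 1.46 ± 0.70, while Pbsn was detected on none of the 6 arrays. The secretoglobins went the other way. Scgb2b27 had 4.80, 5.37 and 5.81 in Tumor+Allo/Y d28, detected on 2 of 3 arrays, and 10.29, 9.49 and 6.92 in Tumor, a fall of 3.57 ± 0.72 (adjusted p = 0.033). Its difference was -2.88 without Tumor sample 4 (adjusted p = 0.0697) and -4.56 without sample 6 (adjusted p = 0.00327). Scgb2b7 fell by 3.00 ± 0.70, with a difference of -4.05 without Tumor sample 6, and was detected on 1 of 3 day 28 arrays, and near-identical copies of these genes may share their probes.

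The neuropeptide genes Vip and Cartpt were among the largest rises. Vip had 8.10, 9.79 and 6.92 in Tumor+Allo/Y d28 and 5.38, 5.27 and 4.42 in Tumor, detected on 2 of 3 Tumor arrays, a rise of 3.25 ± 0.67 (adjusted p = 0.0367). Without Tumor+Allo/Y d28 sample 11 it gave 2.49 (adjusted p = 0.0953), and without sample 12 it gave 3.92. Cartpt had 8.03, 9.10 and 7.65 in Tumor+Allo/Y d28 and 5.55, 5.48 and 4.47 in Tumor, detected on 2 of 3 Tumor arrays, and rose by 3.09 ± 0.51, with both of its probes called. Both peptides were highest in sample 11. C7, a complement component of the membrane attack complex made by stromal cells, had 7.20, 7.43 and 7.26 in Tumor+Allo/Y d28 and 5.18, 5.37 and 4.98 in Tumor, where 2 of 3 arrays detected it. With groups this tight it rose by 2.13 ± 0.18 (adjusted p = 0.00224). Of 28 fibroblast, matrix and smooth muscle genes Col15a1 alone rose on the probe used, by 1.15 ± 0.22, while other probes of Dcn, Fbln1 and Lum were called higher too. Matrix genes outside the list were also called higher, among them Has1 (1.79), Lamc3 (1.54), Lama2 (1.06) and Serpinh1 (0.90). The list mean was 8.73, 8.89 and 8.71 in Tumor+Allo/Y d28 and 8.93, 8.44 and 7.53 in Tumor. Of 24 endothelial genes 0 were called (median 0.58). What part the epithelial and stromal RNA of single arrays plays in these differences was not tested.

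The remaining large rises were those of Sult5a1 (2.14 ± 0.41), a sulfotransferase gene detected on 1 of 3 Tumor arrays, Pde4d (1.99 ± 0.34), which degrades cyclic AMP, and B4galnt4 (1.87 ± 0.29), a glycosyltransferase called on all 3 probes. The Wnt ligand Wnt2 was not detected in Tumor and was at least 2.79-fold higher in Tumor+Allo/Y d28 (adjusted p = 0.0287). Among the falls, Lpp, a focal adhesion protein, gave -1.64 ± 0.23 with the smallest adjusted p of any lower gene (0.0143). Tmsb15a, a thymosin, was not detected at day 28 and was at least 2.13-fold lower than in Tumor (adjusted p = 0.0217). The serine protease Tmprss4 fell by 1.53 ± 0.31, the adhesion protein gene Amigo3 by 1.29 ± 0.24 and Mblac1 by 1.25 ± 0.24, with Tmprss4 and Mblac1 each detected on 1 of 3 day 28 arrays. The immediate early genes Nr4a3 and Nr4a2 rose, Nr4a3 by 1.23 ± 0.22, and Btg2 was at least 1.24-fold lower and not detected at day 28.

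The series also holds the combined transfer at 1 week, which shares its transfer with the day 28 group and its time with Tumor. Tumor+Allo/Y d28 against Tumor+Allo/Y gave 231 genes higher (1.93%) and 57 lower (0.476%), and Tumor+Allo/Y against Tumor gave 0 (0%) by limma, where 431 genes had an unadjusted p under 0.05 and the smallest adjusted p was 0.703. These comparisons share arrays with the one above and are given side by side only. Of the 204 higher and 112 lower genes, 131 and 34 were also called in the same direction against Tumor+Allo/Y. The T cell identity list had a median of 1.35 for day 28 minus Tumor+Allo/Y and of -0.22 for Tumor+Allo/Y minus Tumor. For NK cells the medians were -0.75 and -0.10, for type I interferon genes -0.93 and 0.21, and for proliferation -0.56 and -0.09. For B cells they were 1.00, with 0 genes called, and 0.27. Klrh1 stood at 5.01, 4.97 and 5.16 in Tumor+Allo/Y, where 1 of 3 arrays detected it, below every array of the day 28 and Tumor groups.

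**Figure D5:**
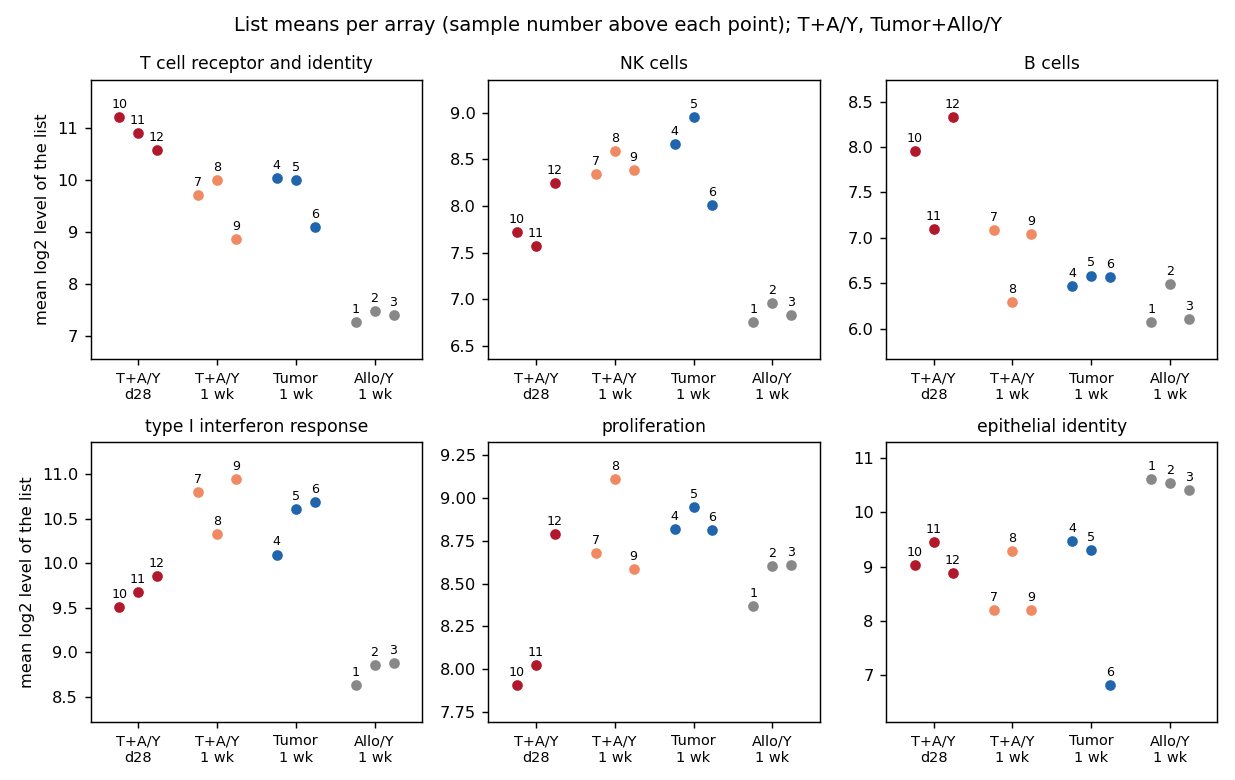
Mean log2 level of 6 gene lists on each of the 12 arrays, with the sample number above each point and the groups in the order Tumor+Allo/Y d28, Tumor+Allo/Y, Tumor and Allo/Y. The T cell list lies between 10.59 and 11.22 at day 28, above all other arrays, and Tumor sample 6 is the lowest array for epithelial genes, at 6.82.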

How the data were processed

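The authors' deposited raw table gives a signal intensity on a linear scale and a detection p-value for each of 45281 probes and 12 Illumina arrays, neither normalised nor background-subtracted as its values show. The authors' deposited normalised table, also intensity, served as an alternative. The submitters' processing notes name GenomeStudio, and other settings are not given in the sources used here. From the deposited intensities, log2 levels were computed with neqc of limma 3.58.1 in R 4.3.3 (negative controls inferred from detection p, offset 16, quantile normalisation). Probe names came from the platform annotation, with symbols updated through the RefSeq gene table, and 99.9% of kept named probes matched a current gene. Of 23054 kept probes, 19235 carried 1 gene symbol, 12 several and 3807 none, and probes with several or none were tested but not named. Of 11971 genes, 4832 had more than 1 kept probe. The fit was a linear model in limma over all 12 arrays with 4 group means and moderated variances (8 residual and 2.74 prior degrees of freedom). Its p-values are two-sided. Exact tests on 3 against 3 arrays cannot give a p below 0.1 and were not used. Named genes were, of the called genes with groups that did not overlap, the 15 that rose most and the 15 that fell most, up to 3 members of each of 41 gene lists by p, and a set of fixed genes, of which Cd8a, Gzmb, Ighm, Jchain and Mki67, among others, had no kept probe of their own. Other genes were named after their values were seen, as members of called families or lists. The members and lists were chosen with earlier results of these data known. "At least" folds set the detected group against the lowest level detected on each array. The code was tested on simulated data. The number of arrays limits the precision.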

Additional observations from a re-analysis of the deposited data

How the results depend on the processing

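The calls moved with the processing. None of the 60 named genes called in the comparison changed sign under any of the 23 alternatives, but in many of these the sign could not change. Other filters, tests and adjustments kept the same group means. Leaving out or weighting arrays cannot turn the sign of a gene whose groups do not overlap. No paired analysis was possible because every array has its own sample number and none is shared between the groups. Against 204 genes called higher and 112 lower, and 486 and 203 probes, equal medians in place of quantile normalisation gave 80 and 67 genes (245 and 91 probes). The 6 arrays alone gave 5 and 0 (16 and 0), array weights, whose iteration stopped before convergence, 1877 and 2426 (3913 and 4264), and a minimum fold of 1.5 gave 3 and 0 (7 and 0). A plain t statistic without moderation gave 0 and 0 (0 and 0), with 1765 genes at an unadjusted p under 0.05. The epithelium score as a covariate gave 448 and 448 (1030 and 767), and an equal leukocyte gene mean gave 10 and 23 (21 and 38). Normexp without control information gave 191 genes and 311 probes lower, and adjustment over 1 probe per gene 124 and 65 genes. Leaving out 1 array gave 5 to 206 genes higher and 0 to 182 lower (15 to 527 and 1 to 292 probes). The lowest of these were without Tumor+Allo/Y d28 sample 10, and the highest lower count was without sample 12. The causes were not tested. Equal medians and the equal leukocyte mean moved the median of all genes to -0.11 and -0.15, against -0.05. The authors' normalised table, cyclic loess, no background correction and the other filters moved no gene count by over 1.5 times.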

Other observations

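Gene lists of cell metabolism and of further cell types were measured with few calls. Of 23 genes of the mitochondrial respiratory chain 20 had a negative difference (median -0.27) and 0 were called, and on 11 of them the day 28 arrays lay below all Tumor arrays, against 12.9% of all genes. Glycolysis and hypoxia genes had a median of -0.42 over 20 genes, with Slc2a3 called higher. Cytosolic ribosomal protein genes had a median of 0.10 over 24 genes. Dendritic cell genes had a median of 0.23 over 16 genes and chemokine genes one of 0.32 over 29. Lists of Fc receptors, lysosomal genes and macrophage lipid handling had medians of -0.37, -0.08 and -0.24 with 0 called. The erythrocyte and platelet list had a median of 0.43 over 7 genes, and of -0.33 without Tumor sample 6.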
